A study of Homo sapiens with 4 samples.

Results

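Fibronectin and 9 matrix proteins that surround it were followed across 4 RNA-seq libraries of HGC-27, an established line of human gastric cancer cells. The 10 genes, of 31907 gene names with a count in any library, were FN1 (fibronectin), the matricellular genes SPARC, SPARCL1, THBS1, THBS2, TNC and POSTN, the fibrillins FBN1 and FBN2, and the fibulin FBLN1. They were chosen by name, as a group selected on their counts in the same 4 libraries, so the rIL-17B against PBS values given here are a description of genes picked with those values in view. The cells were kept for 48 h with PBS, the control, or with 200 ng/ml of recombinant IL-17B (rIL-17B), 2 libraries each, named PBS 1, PBS 2, rIL-17B 1 and rIL-17B 2 after their replicate numbers. The labels name no genetic change or other agent for either group. The comparison asks which transcripts differ once IL-17B has been added. Nothing in the labels says that the replicates came from separate cultures. The p-values therefore rest only on the spread between these libraries, shared across genes, which may be technical.

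Fibronectin is a secreted glycoprotein that cells pull into fibrils through integrins, and the fibrils then serve as a scaffold for collagens, fibrillins and fibulins. Matricellular proteins such as the thrombospondins, SPARC, tenascin C and periostin are secreted into the same matrix but act mainly by tuning contacts between cells and matrix and the supply of growth factors. Fibrillins build the microfibrils that carry elastin and hold latent TGF-beta. In tumours these genes are known chiefly as products of fibroblasts and of cancer cells in a mesenchymal state, and SPARCL1 is in addition abundant in the brain.

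The promoters of 5 of the 10 genes are shown because these genes mark the extremes of the data: FN1 held the most counts of any gene in 3 libraries, POSTN, THBS2 and SPARCL1 had under 10 counts in rIL-17B 1, and FBLN1 was the only gene of the 10 that was higher there. Each run is the 250 bases before the transcription start that RefSeq gives on GRCh38.p14, read 5′ to 3′ on the gene's own strand, and all 10 genes had such a window. Capitals mark short motifs that were searched on both strands and allowed to overlap. They are the TATA box, searched as TATAAA, and the binding site of Sp1-type factors known as the GC box, searched as GGGCGG. The CCAAT box, searched by the letters of its name, and the cAMP response element TGACGTCA are in capitals too. The windows of SPARCL1 and FBLN1 lie wholly, and the other 3 partly, inside the wider gene that GENCODE 29 annotates.
FN1, chr2:215436069-215436318, minus strand: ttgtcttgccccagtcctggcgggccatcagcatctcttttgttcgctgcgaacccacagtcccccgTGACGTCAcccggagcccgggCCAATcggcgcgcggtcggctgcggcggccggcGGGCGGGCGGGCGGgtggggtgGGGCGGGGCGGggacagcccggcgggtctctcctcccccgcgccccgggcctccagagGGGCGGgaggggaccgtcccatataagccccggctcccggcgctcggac
POSTN, chr13:37598769-37599018, minus strand: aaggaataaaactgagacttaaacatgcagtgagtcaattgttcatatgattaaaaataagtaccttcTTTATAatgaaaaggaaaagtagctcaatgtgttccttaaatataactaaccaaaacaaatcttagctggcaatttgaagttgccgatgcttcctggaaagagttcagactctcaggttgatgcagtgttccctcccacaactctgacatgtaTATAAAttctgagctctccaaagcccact
THBS2, chr6:169253847-169254096, minus strand: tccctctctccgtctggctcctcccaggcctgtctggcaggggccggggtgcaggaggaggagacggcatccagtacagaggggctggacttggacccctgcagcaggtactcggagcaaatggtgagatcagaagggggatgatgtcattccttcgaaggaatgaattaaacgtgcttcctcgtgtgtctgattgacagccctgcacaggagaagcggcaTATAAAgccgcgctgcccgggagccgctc
SPARCL1, chr4:87529377-87529626, minus strand: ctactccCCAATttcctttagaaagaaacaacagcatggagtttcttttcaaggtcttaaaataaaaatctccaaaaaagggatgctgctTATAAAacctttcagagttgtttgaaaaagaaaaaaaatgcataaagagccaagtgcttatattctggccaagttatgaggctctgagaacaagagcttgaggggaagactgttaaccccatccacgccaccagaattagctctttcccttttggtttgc
FBLN1, chr22:45502633-45502882, plus strand: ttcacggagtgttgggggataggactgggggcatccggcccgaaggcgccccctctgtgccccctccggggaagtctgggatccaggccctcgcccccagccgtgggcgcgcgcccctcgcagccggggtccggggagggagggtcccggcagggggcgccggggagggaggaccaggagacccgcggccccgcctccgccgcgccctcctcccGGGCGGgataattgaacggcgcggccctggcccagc

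The windows were unlike each other in base composition. FN1 and FBLN1 were rich in G and C (76.4% and 77.6%), with 32 and 27 CpG pairs, whereas POSTN and SPARCL1 (36.4% and 38.8%) had 1 CpG each. THBS2 lay between them at 60.0% with 12 CpG, close to the median of 58% and 11 CpG over 35116 RefSeq windows. The exact letters TATAAA, on either strand, were found in 3 of the 10 genes, POSTN, SPARCL1 and THBS2, and in 10.7% of all windows. In POSTN and in THBS2 they stood at the same place, 29 to 24 bases before the start. POSTN had another match on the opposite strand further away, and in SPARCL1 the match lay further from the start. Similar letters, such as TATAAG in the windows of FN1 and TNC, were not searched. The GC box was found in 5 of the 10 (FN1, THBS1, TNC, FBN2 and FBLN1) and in 42.6% of all windows, and the CCAAT box in 4 (FN1, SPARCL1, THBS1 and FBN2) against 32.0%. FN1 alone of the 10 carried the cAMP response element, found in 1.65% of all windows, between 183 and 176 bases before the start, followed by a CCAAT box and 6 GC boxes. An AP-1 site (TGANTCA) was found in POSTN alone, against 6.57% of all windows, and an NF-kB site (GGG, any 2 bases, then TTTCC) in none of the 10, against 1.73%. These are matches of letters in a short window, and they were not tested against the counts.

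The 4 libraries differed in ways that touch every value given here. The PBS libraries totalled 15904594 and 12888029 counts, the rIL-17B libraries 14615341 and 17555879, so the lowest level that 3 counts can show was between 0.171 and 0.233 CPM (counts scaled by the total of the library). rIL-17B 1 stood apart: 3040 of the 16361 genes tested were at least 2-fold below the PBS mean in it (18.6%), against 94 in rIL-17B 2 (0.575%), and the 10 highest genes took 7.29% of its counts against 10.8% to 11.9% in the others. Of 21 gastric and epithelial markers, KRT8, KRT18 and KRT7 were between 165 and 1457 CPM, EPCAM was between 3.03 and 5.34 CPM, CDH1 was under 1 CPM, and TFF1 and PGC had no count. The PBS libraries held 20712 and 20298 CPM summed over 13 fibroblast markers and 766 and 1176 CPM over the 14 of 18 neural and glial markers that had a count, the labelled cell being a gastric cancer line. Whether a library was exchanged or mixed with other material cannot be told from the files, so each rIL-17B 1 value describes that library and not an established response to rIL-17B. In these bulk samples fewer cells of a type and less RNA per cell cannot be told apart.

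The main feature of the data was that 9 of the 10 genes were far lower in rIL-17B 1 than in any other library, while rIL-17B 2 stayed close to PBS. Together the 10 genes took 4.18% and 4.09% of all counts with PBS, 0.129% in rIL-17B 1 and 3.49% in rIL-17B 2. In rIL-17B 1, 9 of the 10 were at least 2-fold below the PBS mean, where 18.6% of all genes tested were, 8 were at least 4-fold below it, where 9.94% were, and 0 were at least 2-fold above it, where 2.61% were. In rIL-17B 2, 0 of the 10 were 2-fold below (0.575% of all genes) and 0 were 2-fold above (0.0611% of all genes). These folds were taken on CPM after 0.5 CPM was added to each value.

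**Figure D1:**
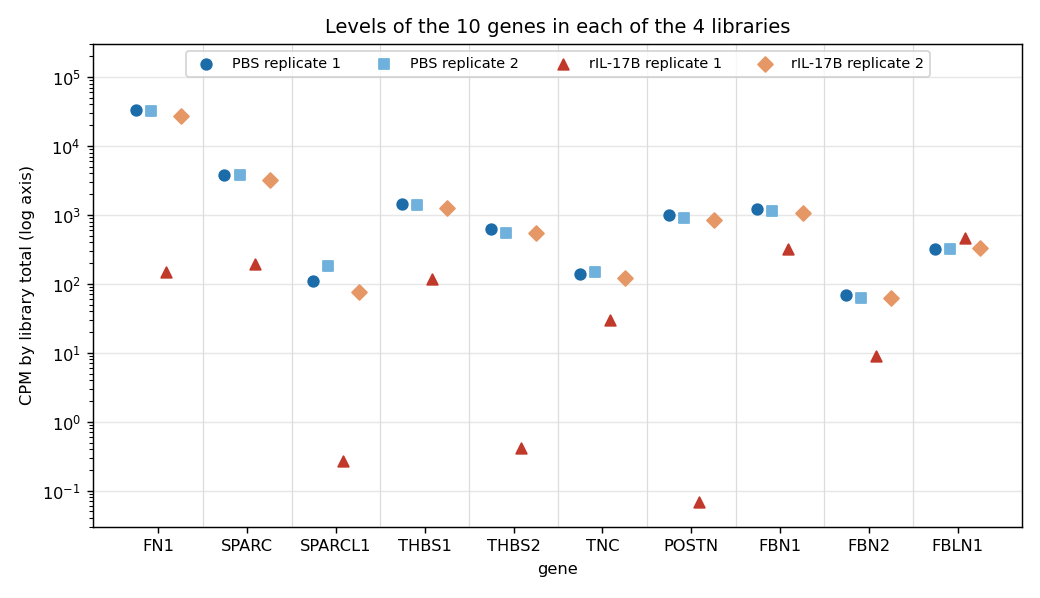
Level of each of the 10 genes (x axis) in CPM by library total on a log axis (y axis), 1 point per library. The red triangles of rIL-17B 1 lie far below the other points for 9 genes, down to 0.0684 CPM for POSTN, and above them for FBLN1 at 469 CPM. That POSTN value is 1 count, below the floor of 3 counts.

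FN1 showed how large the gap was. It had 526938 and 418314 counts with PBS, 2172 counts in rIL-17B 1 and 481910 in rIL-17B 2. As CPM these were 33131, 32458, 149 and 27450. The gene held the highest count of all genes in both PBS libraries and in rIL-17B 2, and ranked 1427 by count in rIL-17B 1. Fibronectin mRNA alone made up 3.31% (95% Wilson interval 3.30 to 3.32) and 3.25% (3.24 to 3.26) of the counts with PBS, 0.0149% (0.0142 to 0.0155) in rIL-17B 1 and 2.745% (2.737 to 2.753) in rIL-17B 2. Intervals here and below cover counting error only. They are too narrow even for that, because PCR copies of a molecule were counted separately. Relative to the pooled PBS libraries, rIL-17B 1 was 221-fold lower (exact 95% interval 212 to 231) and rIL-17B 2 stood at 83.6% (83.3 to 83.9). The PBS libraries differed 1.02-fold. FN1 lies on chromosome 2, 215360440 to 215436172 (GENCODE 29 on GRCh38, the source of all gene positions here).

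SPARC and POSTN, whose products bind collagen, were both lowest in rIL-17B 1, by very different folds. SPARC (chromosome 5, 151661096 to 151687165), which takes part in building collagen fibrils outside the cell, had 3779.5 and 3801 CPM with PBS, 195 in rIL-17B 1 and 3185 in rIL-17B 2. That was 19.5-fold lower than PBS in rIL-17B 1 (18.8 to 20.2) and 84.1% of PBS (83.2 to 84.9) in rIL-17B 2. POSTN (chromosome 13, 37562583 to 37598844) encodes periostin, which also binds tenascin and integrins. It had 15707 and 11408 counts with PBS, 1 count in rIL-17B 1 and 14618 counts in rIL-17B 2. The single count, below the floor of 3 counts used here, left POSTN at 0.00727% of PBS (exact counting interval 0.000184% to 0.0405%). By log2 ratio with 0.5 CPM added, only 1 of the 10719 genes with at least 100 counts in both PBS libraries was lower. Genes with 0 counts in rIL-17B 1, such as PTPRZ1 with 4250 and 5527 counts with PBS, could rank above POSTN on that measure. In rIL-17B 2 POSTN stood at 88.4% of PBS (86.7 to 90.2), and the PBS libraries themselves were 988 and 885 CPM.

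SPARCL1 (chromosome 4, 87473335 to 87531061), the relative of SPARC known as hevin that takes part in synapse formation, varied between the PBS libraries more than the other 9. It had 111 and 179 CPM with PBS, 0.274 in rIL-17B 1 and 76.9 in rIL-17B 2. The PBS libraries differed 1.61-fold, whereas for the other 9 genes PBS 2 was between 0.862 and 1.05 times PBS 1. Only 4 counts were left in rIL-17B 1, 0.193% of PBS (0.0527 to 0.496), and rIL-17B 2 was at 54.3% (51.1 to 57.8), the lowest share of the 10. Between rIL-17B 2 and the nearer PBS library the fold was 1.44, which is smaller than the fold between the PBS libraries.

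The thrombospondins parted from each other in rIL-17B 1. THBS1 (chromosome 15, 39581079 to 39599466), which restrains vessel growth and can free latent TGF-beta, had 1418 and 1379 CPM with PBS, 119 in rIL-17B 1 and 1241 in rIL-17B 2. Its close relative THBS2 (chromosome 6, 169215780 to 169254044) had 624 and 538 CPM with PBS, 0.411 in rIL-17B 1 from 6 counts, and 542 in rIL-17B 2. rIL-17B 1 was the lowest library for both genes, and no rIL-17B library of THBS1 overlapped the PBS libraries. THBS1 was 11.8-fold lower (11.3 to 12.4) and THBS2 1426-fold lower (655 to 3885) in rIL-17B 1. Per kilobase of merged exons, THBS1 was 1.59 and 1.80 times THBS2 with PBS, 202 times in rIL-17B 1 and 1.60 times in rIL-17B 2. The level of THBS2 in rIL-17B 2 lay between those of the PBS libraries.

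TNC and the fibrillins were the least reduced of the 9. TNC (chromosome 9, 115019578 to 115118257), which encodes the many-armed protein tenascin C that loosens the hold of cells on fibronectin, had 141 and 148 CPM with PBS, 29.8 in rIL-17B 1 and 121 in rIL-17B 2. FBN1 (chromosome 15, 48408306 to 48645849), the main fibrillin of microfibrils, had 1196 and 1152 CPM with PBS, 316 in rIL-17B 1 and 1052 in rIL-17B 2. FBN2 (chromosome 5, 128257909 to 128659185), the fibrillin best known from development, had 69.4 and 62.9 CPM with PBS, 8.96 in rIL-17B 1 and 61.6 in rIL-17B 2. For all 3, rIL-17B 1 was the lowest library and rIL-17B 2 lay just below both PBS libraries. Against PBS, rIL-17B 1 was 4.83-fold lower for TNC (4.37 to 5.34), 3.72-fold lower for FBN1 (3.60 to 3.83) and 7.42-fold lower for FBN2 (6.21 to 8.92). The ratio of FBN1 to FBN2 per kilobase was 14.2 and 15.0 with PBS, 29.01 in rIL-17B 1 and 14.03 in rIL-17B 2.

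FBLN1 went the other way. This gene (chromosome 22, 45502238 to 45601135) encodes fibulin 1, which binds fibronectin and is found in elastic fibres and basement membranes. It had 319 and 317 CPM with PBS, 469 in rIL-17B 1 and 327 in rIL-17B 2. rIL-17B 1 was at 148% of PBS (143 to 152) and rIL-17B 2 at 103% (99.7 to 106), so that both rIL-17B libraries were above both PBS libraries. Per kilobase, FN1 was 43.8 and 43.1 times FBLN1 with PBS, 35.3 times in rIL-17B 2 and 0.133 times in rIL-17B 1.

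**Figure D2:**
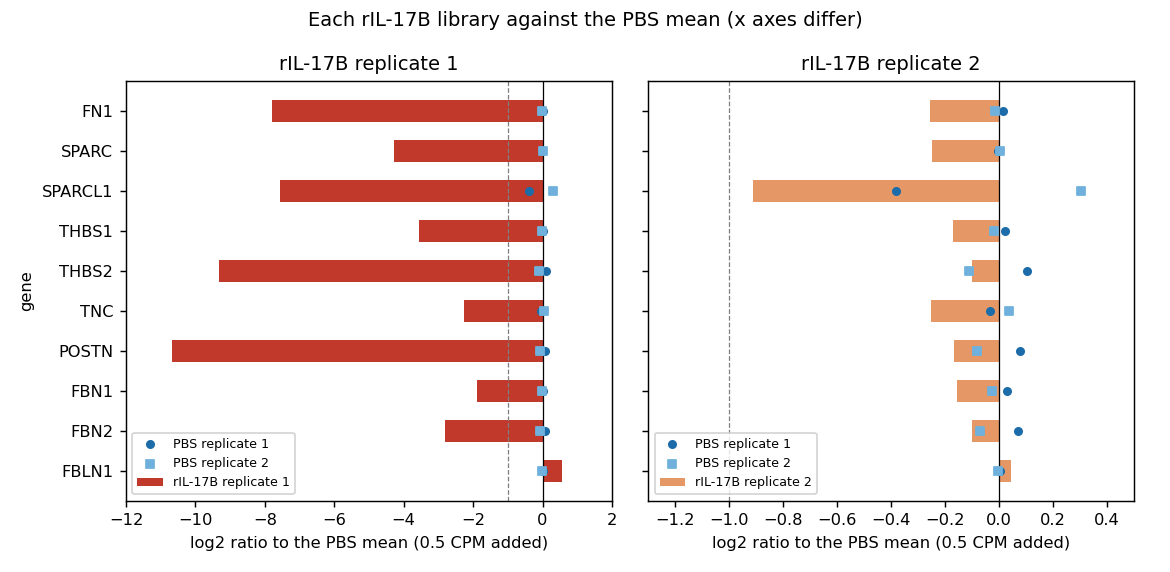
Log2 ratio of each rIL-17B library to the mean of PBS 1 and PBS 2 (bars, 0.5 CPM added) for the 10 genes, with the PBS libraries as points and the 2-fold limit as a dashed line. The x axes differ between the panels: rIL-17B 1 reaches -10.69 for POSTN, and in rIL-17B 2 SPARCL1 at -0.91 is the longest bar.

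On this log2 scale rIL-17B 1 ranged from -10.69 (POSTN), -9.32 (THBS2), -7.78 (FN1) and -7.56 (SPARCL1) through -4.28 (SPARC), -3.56 (THBS1) and -2.82 (FBN2) to -2.26 (TNC), -1.89 (FBN1) and 0.56 (FBLN1). The median of the 10 was -3.92, beside a median of 0.08 over all genes tested. With TMM scaling the median over all genes moved by -0.13 in rIL-17B 1, and no direction among the 10 changed. In rIL-17B 2 the ratios lay between -0.91 (SPARCL1) and 0.04 (FBLN1), with a median of -0.17. There 8 of the 10 were below both PBS libraries (THBS2 and FBLN1 were not), where 36.1% of all genes tested were. All 8 were below both PBS libraries in rIL-17B 1 as well, where 27.5% of all genes had both rIL-17B libraries below both PBS libraries and 31.5% had both above, as FBLN1 did.

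**Figure D3:**
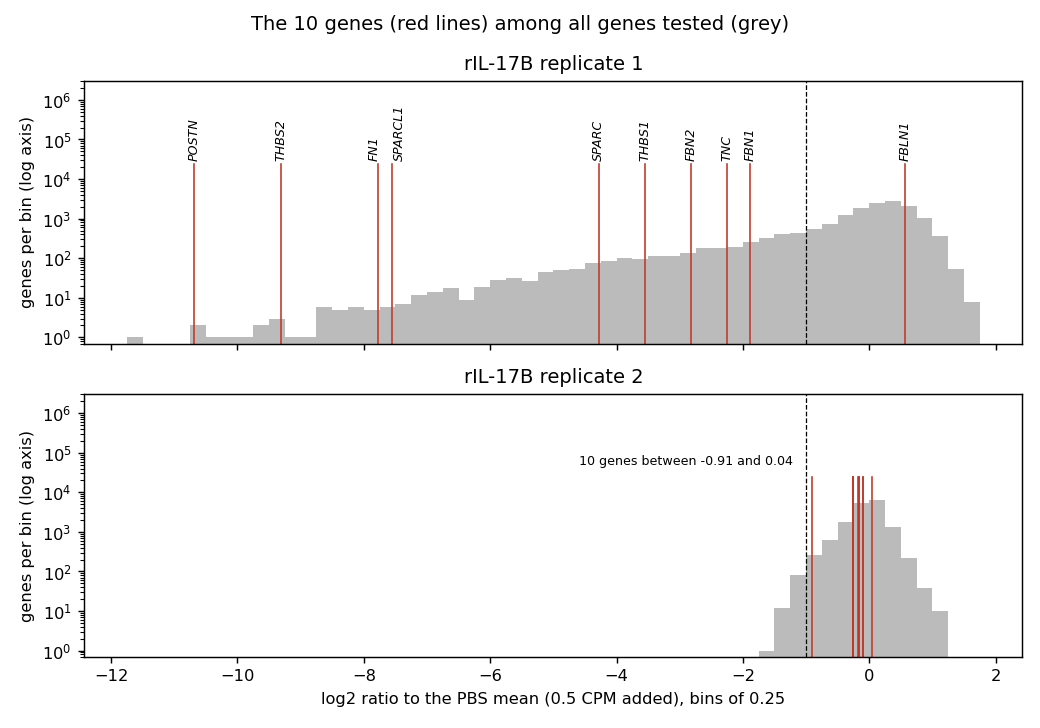
Histogram of log2 ratios to the mean of the PBS libraries (x axis, 0.5 CPM added, bins of 0.25) over the 16361 genes tested, with the number of genes per bin on a log axis and the 10 genes as red lines. In rIL-17B 1 POSTN, THBS2, FN1 and SPARCL1 sit in the far left tail, and in rIL-17B 2 all 10 lie within the 2-fold limit (dashed).

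The same ratios can be placed among those of the 10719 well-counted genes. In rIL-17B 1, 9 genes, POSTN among them, had a lower ratio than THBS2, 33 had a lower ratio than FN1 and 39 a lower ratio than SPARCL1. SPARC had 420 genes below it, THBS1 609, FBN2 728, TNC 839 and FBN1 955. FBLN1 had 8606 below it. These places are not a ranking of the fall in counts. With 0.5 CPM added, the ratio of a gene with 0 counts is set by its PBS level. CHI3L1, with 0 counts in rIL-17B 1, stood at -7.74, above FN1 at -7.78 with 2172 counts. Likewise NOS2, with 0 counts, stood at -7.40, above SPARCL1 at -7.56 with 4 counts.

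None of the 10 genes passed the comparison of the groups. In edgeR's quasi-likelihood F test over 16361 genes, 0 genes (0%) reached an adjusted p under 0.05 after Benjamini-Hochberg adjustment, 226 had an unadjusted p under 0.05, and DESeq2 called 0 as well (457 unadjusted). The fitted log2 fold changes of the 10, whose contrast was used to choose them, were lower with rIL-17B for 9, where 52.6% of all genes tested were lower. Their median was -1.08 beside -0.03 over all genes. FN1 had -1.25 (SE 2.16), SPARCL1 -1.91 (SE 2.11) and POSTN -1.17 (SE 2.81), so each standard error was larger than the change. SPARC (-1.18, SE 1.38), THBS1 (-1.06, SE 1.20), THBS2 (-1.10, SE 2.52) and FBN2 (-0.93, SE 1.01) were alike in this. TNC (-0.97, SE 0.77), FBN1 (-0.81, SE 0.69) and FBLN1 (0.24, SE 0.18) were the 3 whose change exceeded its SE. The adjusted p of the 10 in edgeR ran from 0.661 to 0.827. For a gene on its own, 0.333 is the smallest two-sided p that exact permutation of these 4 libraries allows.

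The result turned on which rIL-17B library was kept. Without rIL-17B 1, edgeR called 504 of 17103 genes (2.95%), among them 3 of the 10: FN1 (log2 fold change -0.26, SE 0.0595, adjusted p = 0.00144), SPARC (-0.25, SE 0.0714, adjusted p = 0.0195) and SPARCL1 (-0.91, SE 0.0938, adjusted p = 1.52e-18). Between rIL-17B 2 and the nearer PBS library the folds were 1.18 for FN1, 1.19 for SPARC and 1.44 for SPARCL1. The median of the 10 was then -0.18. Without rIL-17B 2, edgeR called 9489 of 17223 genes (55.1%) and all 10 genes, with a median of -4.06. In each of these fits the lone rIL-17B library was assumed to vary like the PBS libraries, and edgeR shared the spread across genes. Without rIL-17B 1, the SE of SPARCL1 was thus small although its own PBS libraries differed 1.61-fold. Such p-values do not measure the spread of a gene's own libraries.

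Scaled by length, FN1 and SPARC were the highest of the 10 in both PBS libraries and in rIL-17B 2. With PBS the CPM per kilobase of merged exons (mean ± SD, n = 2) was 1894 ± 27.5 for FN1 and 785 ± 3.17 for SPARC. Next came POSTN with 171 ± 13.3, THBS1 with 153 ± 3.05, THBS2 with 90.6 ± 9.49 and FBN1 with 73.1 ± 1.97. FBLN1 (43.6 ± 0.189) and SPARCL1 (41.7 ± 13.8) overlapped between libraries and could not be ordered, and TNC (15.0 ± 0.513) and FBN2 (5.01 ± 0.344) were lowest. The 2 PBS libraries of the other neighbours in this order did not overlap. rIL-17B 2 had the order of the PBS mean, SPARCL1 being above FBLN1 in PBS 2 alone, whereas in rIL-17B 1 FBLN1 came in place 1, SPARC 2, FBN1 3, THBS1 4, FN1 5 and POSTN 10. With the length of the longest transcript in place of merged exons, FBLN1 moved to place 5, THBS2 to 6 and FBN1 to 7, and the other 7 genes kept their places.

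**Figure D4:**
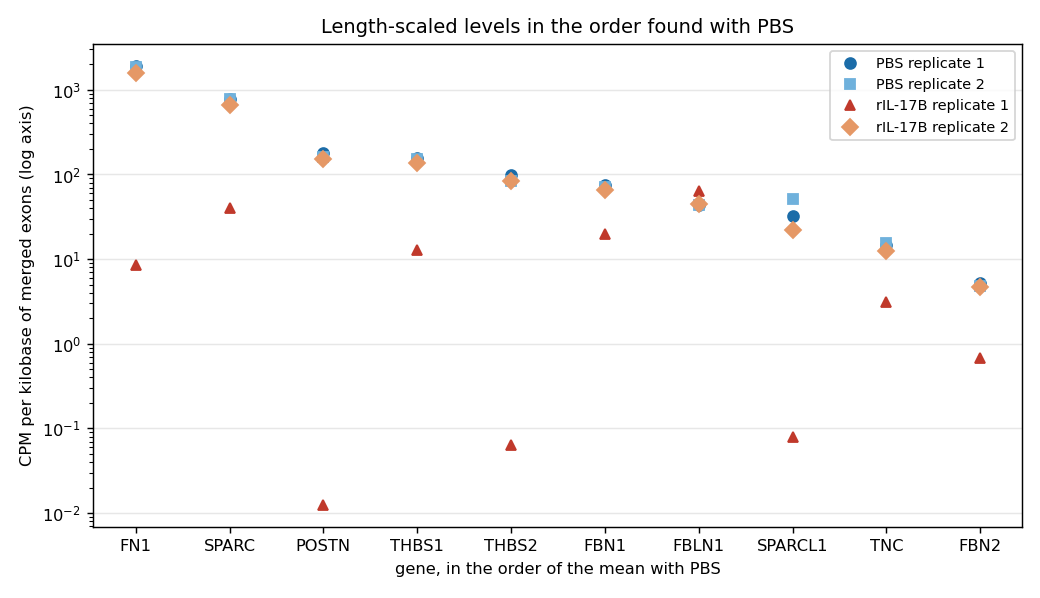
CPM per kilobase of merged exons (y axis, log) for the 10 genes in the order of their mean with PBS (x axis), 1 point per library. rIL-17B 2 follows the order of the PBS mean, and rIL-17B 1 does not, with FBLN1 its highest point.

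Genes that receive or assemble these proteins had median ratios nearer to 0 than the 10 genes in rIL-17B 1 (-0.44 and -0.83 for the lists that follow, against -3.92). At least 2-fold lower there were 8 of 20 and 8 of 17 genes tested in these lists, beside 18.6% of all genes tested. Of 21 fibronectin receptors and assembly genes, 20 were tested and 0 passed the threshold, with 13 fitted lower and 7 higher and a median log2 fold change of -0.38, beside 52.6% lower and a median of -0.03 over all genes tested. ITGA5, the integrin chain that binds fibronectin, had 569.6 and 565 CPM with PBS, 142 in rIL-17B 1 and 496 in rIL-17B 2. Its partner ITGB1 had 1425, 1341, 583 and 1279 CPM in the same order. Talin (TLN1), which links integrins to actin, had 635, 652, 254 and 593 CPM, while vinculin (VCL) had 439.8, 442, 505 and 468 CPM and was highest in rIL-17B 1. Of 17 receptors of thrombospondin, SPARC and tenascin, 0 passed, 12 were fitted lower and 5 higher, with a median of -0.50. LRP1, an endocytic receptor that clears thrombospondins, had 1549 and 1603 CPM with PBS, 323 in rIL-17B 1 and 1379 in rIL-17B 2, and CALR and ANXA2 were at 105% and 136% of the PBS mean in rIL-17B 1.

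Most other matricellular and microfibril genes were fitted lower with rIL-17B, and some were higher in rIL-17B 1. Of 27 other matricellular genes 22 were tested, 0 passed, and 19 were fitted lower and 3 higher, with a median of -0.90. In rIL-17B 1, 15 of the 22 were at least 2-fold lower (18.6% of all genes tested), and in rIL-17B 2 there were 0. CTGF, now named CCN2, a matricellular protein that modulates growth factor signals, had 802 and 776 CPM with PBS, 69.9 in rIL-17B 1 and 650.0 in rIL-17B 2. FSTL1, EDIL3 and TGFBI stood at 33.8%, 49.3% and 74.0% of the PBS mean in rIL-17B 1, while NOV, WISP2 and SMOC1, named after their values were seen, stood at 168%, 187% and 191%. Of 28 microfibril and elastic fibre genes 26 were tested, 0 passed, 22 were fitted lower and 4 higher, with a median of -0.58, and 14 were at least 2-fold lower in rIL-17B 1 and 0 in rIL-17B 2. LTBP2, of the latent TGF-beta binding protein family and found on fibrillin microfibrils, had 789.8 and 819 CPM with PBS, 5.75 in rIL-17B 1 and 644 in rIL-17B 2. Its relatives LTBP1 and LTBP3 kept 43.2% and 30.2% in rIL-17B 1, and the crosslinking enzyme LOX kept 7.63%.

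TGF-beta is known to raise fibronectin and several of its partners. Of 19 TGF-beta responsive genes 0 passed, 17 were fitted lower and 2 higher, with a median log2 fold change of -0.86 and medians of -1.99 in rIL-17B 1 and -0.19 in rIL-17B 2. In rIL-17B 1, 12 of the 19 were at least 2-fold lower (18.6% of all genes tested). The collagens COL1A1, COL1A2 and COL4A1 stood at 2.77%, 0.0203% and 8.61% of the PBS mean in rIL-17B 1 and at 83.8%, 87.3% and 82.8% in rIL-17B 2. SMAD7, SKIL and PMEPA1, named after their values were seen, stood at 70.8%, 97.8% and 139% in rIL-17B 1. The activity of TGF-beta was not tested. These lists share genes with each other, and their fits share the libraries in which the 10 genes were read.

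Fibroblast, mesenchymal, neural and endothelial marker sums were lowest in rIL-17B 1, as 9 of the 10 genes were, and the gastric and epithelial sum was highest there. Summed over 13 fibroblast markers, levels were 20712 and 20298 CPM with PBS, 924 in rIL-17B 1 and 17642 in rIL-17B 2. Of these markers 12 were at least 2-fold lower in rIL-17B 1 (18.6% of all genes tested), where PDPN and TCF21 had no count and PDGFRA had 1. In rIL-17B 2 there were 0 (0.575% of all genes tested). COL6A3, the fibroblast list's collagen VI chain, had 1579 and 1588 CPM with PBS, 0.479 in rIL-17B 1 and 1352 in rIL-17B 2. Among 10 mesenchymal state genes the sums were 1828, 1789, 1058 and 1631 CPM. In rIL-17B 1, 6 of the 10 were at least 2-fold lower (18.6% of all genes tested), with VIM at 39.1% of the PBS mean. Of the 10, 9 were fitted lower with rIL-17B (52.6% of all genes tested). The 1 fitted higher was S100A4, at 198% of the PBS mean in rIL-17B 1. The gastric and epithelial sums were 1029.1 and 1028.8 CPM with PBS, 2281 in rIL-17B 1 and 1287 in rIL-17B 2. Most of the sum in rIL-17B 1 came from KRT8 (1457 CPM, 240% of the PBS mean), KRT7 (394 CPM) and KRT18 (355 CPM). Of the 11 markers tested, 3 were at least 2-fold higher there (2.61% of all genes tested). The 1 that was at least 2-fold lower (18.6% of all genes tested) was KRT19, at 2.18% of the PBS mean from 1 count. Of the 19 markers found in any library, 3 had no count in rIL-17B 1. Monocyte and leukocyte markers summed to 13.96 and 14.7 CPM with PBS, 8.69 in rIL-17B 1, of which CSF1R made up 8.14, and 13.8 in rIL-17B 2, and endothelial markers to 33.3, 41.0, 1.37 and 27.3 CPM. The part of cell makeup in the levels of the 10 genes was not tested.

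SPARCL1 lay nearer to the neural and glial list than to the fibroblast list in the 3 libraries other than rIL-17B 1. The neural and glial sum in PBS 2 was 1.54 times that in PBS 1, beside 1.61 times for SPARCL1, and the fibroblast sum was 0.980 times. Relative to PBS 1, rIL-17B 2 had 0.718 of the neural and glial sum and 0.852 of the fibroblast sum. PTPRZ1 and NES, markers of neural precursors, had 267 and 220 CPM in PBS 1, 429 and 345 in PBS 2, and 183 and 162 in rIL-17B 2. In rIL-17B 1 the sum was 61.5 CPM, and 11 of the 13 markers tested were at least 2-fold lower (18.6% of all genes tested). Of the 14 found in any library, 6 had no count there, PTPRZ1 among them, and NES had 16.1 CPM. SOX2 and MAP2 kept 11.4% and 46.9% of the PBS mean there. In rIL-17B 2, 1 of the 13 was at least 2-fold lower (0.575% of all genes tested). This is a description over 4 libraries, with no test of the likeness.

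**Figure D5:**
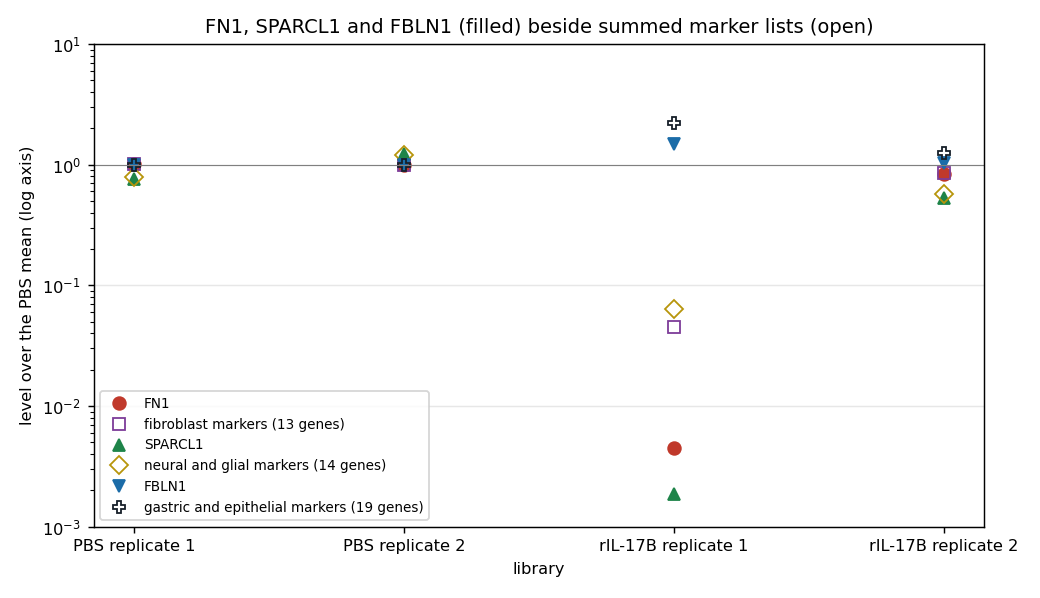
Level over the PBS mean (y axis, log) of FN1, SPARCL1 and FBLN1 (filled) and of the summed CPM of 3 marker lists (open) in each library (x axis). SPARCL1 lies beside the neural and glial sum in the PBS libraries and in rIL-17B 2, while FN1 lies beside the fibroblast sum there, and FBLN1 and the epithelial sum are above 1 in rIL-17B 1.

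The 5 genes whose log2 ratios across the 4 libraries lay nearest to those of FN1, by Euclidean distance among 10709 other genes, were TGM2, CHI3L1, CTHRC1, TMEM119 and FAM129A. TGM2, a transglutaminase that crosslinks matrix proteins, was nearest at a distance of 0.0397, with 563 and 571 CPM with PBS, 2.05 in rIL-17B 1 and 470.5 in rIL-17B 2. The other 4 were at distances of 0.0504 to 0.112 but had 0 or 1 count in rIL-17B 1, so that their ratios there were set by the added 0.5 CPM. Nearest to SPARCL1, a comparison added after the values were seen, were NOS2, ADAMTS9, CORO2B, C1orf61 and SYT11, at distances of 0.158 to 0.588. These also had 0 to 4 counts in rIL-17B 1.

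Some counts are uncertain where genes overlap, because the use of strand in counting is not given in the sources used here. SPARC, THBS1, THBS2, TNC, FBN1 and FBN2 overlap other genes in GENCODE 29, the largest of them an antisense gene of THBS1 with 78, 56, 4 and 62 counts. FN1, POSTN, SPARCL1 and FBLN1 overlap none.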

How the data were processed

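HGC-27 cells were kept for 48 h with PBS or 200 ng/ml rIL-17B, 2 libraries each (Smart-seq2, oligo-dT primer, PCR). Groups came from the sample labels, whose library protocol speaks of monocytes. The authors deposited raw counts of reads per gene name, listing no zeros. The submitters' processing notes name hg38, HISAT2 2.1.0, HTSeq 0.6.0, Bowtie2 2.2.3 and TopHat2, without their roles; strand use is not given in the sources used here.

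Names listed repeatedly with equal counts (83 to 98 per library) were used once, 22 to 25 names turned into numbers were dropped, and a missing gene counted as 0. CPM was count over library total. edgeR 4.0.16 (R 4.3.3) with TMM (factors 0.970 to 1.07), filterByExpr and the quasi-likelihood F test, tested on simulated data, gave Benjamini-Hochberg adjusted p over 16361 genes. DESeq2 1.42.0, other normalizations and filters, pseudocounts, a replicate block and leaving out libraries were alternatives. Lengths and positions came from GENCODE 29, promoters from RefSeq, both on GRCh38. Floors were 3 counts. Figures and joins used Python 3.11.15.

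The 10 genes and the other lists, written by hand, were chosen with earlier results of these data known. Named from each list were the 4 genes highest with PBS, plus the 5 genes nearest to FN1. A gene that this rule names is not reported here. Marker genes named for being at or near 0 (EPCAM, CDH1, TFF1, PGC, KRT19, PDPN, TCF21, PDGFRA) and the genes nearest to SPARCL1 were chosen after their values were seen.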

Additional observations from a re-analysis of the deposited data

How the results depend on the processing

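The count of 0 genes and 0 of the 10 genes past the threshold was unchanged with upper-quartile normalization, DESeq2, no filter, a minimum of 10 counts per library and the replicate block, and 9 of the 10 were fitted lower in each, or 6 of the 7 tested with at least 10 counts. Leaving out each library in turn gave 0 to 9489 genes past the threshold (504 without rIL-17B 1, 9489 without rIL-17B 2), 0 to 10 of the 10 genes and a median log2 fold change of the 10 from -4.06 to -0.18, against -1.08 with all 4 libraries. The labels share replicate numbers and nothing else, and same-numbered libraries deviated with a correlation of 0.08 over 16361 genes. With the replicate block 0 genes passed, 173 had an unadjusted p under 0.05, and the median of the 10 was -2.14, with FN1 at -4.09, SPARCL1 at -4.29, POSTN at -5.69 and THBS2 at -4.87. At 4-fold in place of 2-fold, 8 of the 10 were below the PBS mean in rIL-17B 1 (9.94% of all genes tested). Adding 0.1 or 1 CPM moved the log2 ratio of POSTN there between -12.44 and -9.78, of THBS2 between -10.15 and -8.69 and of SPARCL1 between -8.60 and -6.84, values that rest on 1 to 6 counts. In rIL-17B 1, TMM scaling moved FN1 to -7.92, SPARC to -4.42, POSTN to -10.73 and FBLN1 to 0.42. No direction reversed in any setting. Depth limits the lowest levels to 3 counts per library, and the 2 libraries per group limit every comparison. With 1 count, the POSTN level in rIL-17B 1 lies below that floor.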
